A study of Homo sapiens with 10 samples.

Results

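Binding of CTCF was compared between human embryonic kidney HEK293T cells that overexpressed CGGBP1 (OE) and control cells (CT). The members are all intervals of the unmasked CTCF peak lists of these samples on chromosomes 1 to 22 and X, 41692 peaks in CT and 45872 in OE, which are 87564 of the 90194 peaks on both lists. An OE peak that overlapped no CT peak by 1 bp or more was counted as gained, a CT peak that overlapped no OE peak as lost, and the rest as shared. The CT cells carried a lentiviral non-targeting shRNA and were selected with puromycin at 10 µg/ml. The OE cells carried a lentiviral CGGBP1 cDNA with a FLAG tag, and their selection is not given in the sources used here, so OE and CT differed in the vector as well as in CGGBP1. A further CTCF sample, from cells with an shRNA against CGGBP1 (KD), was used here as a readout on the same peaks. So were lists of H3K4me3, H3K9me3 and H3K27me3 of CT cells and a list of input DNA. The KD cells and the CT cells of the histone lists were likewise selected with puromycin at 10 µg/ml. By the labels the KD list was called at p 0.0025, the same value as for CT. The cells of the input sample are not given in the sources used here. The series has 10 samples with 1 library per condition, so no difference between OE and CT was tested against replicate error. The intervals given below are 95% intervals for counting error only, and neighbouring peaks are not independent replicates. Peaks were called at p 0.005 in OE and 0.0025 in CT according to the labels, so by the labels the OE list was the more lenient one. The study's methods give 0.005 for both.

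CTCF is a zinc finger protein that binds a long GC-rich motif. It stops the loop-forming cohesin ring on chromatin and separates chromatin domains. CGGBP1 is a small nuclear protein that binds CGG repeats and interspersed repeats of the L1 and Alu families. H3K4me3 marks active promoters, H3K9me3 marks silent repeat-rich chromatin and H3K27me3 marks chromatin repressed by Polycomb proteins.

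The motif was searched as its core, the letters CCA, 2 free positions, AG, 2 free positions, GGC, on both strands. The first sequences are from gained peaks at promoters and the next ones from lost peaks at promoters. They are the widest non-repeated promoter peaks of each direction that held the core and whose printed window of 120 bases touched no annotated UTR, and they were chosen after their sequences were known. Letters are hg38, plus strand, and capitals mark the core. RALGDS, which codes for an activator of Ral GTPases, had its gained peak at chr9:133103236-133103745, and chr9:133103295-133103414 is shown. ICA1, an islet cell autoantigen, had its gained peak at chr7:8217397-8217878, and chr7:8217605-8217724 is shown. ABCB8, a mitochondrial transporter, had its gained peak at chr7:151028659-151029116, and chr7:151028740-151028859 is shown. GLIS2, a zinc finger factor of the kidney, had its lost peak at chr16:4313796-4314264, and chr16:4314023-4314142 is shown. TMEM178A had its lost peak at chr2:39696991-39697435, and chr2:39697029-39697148 is shown. CTNNA1, the adhesion protein alpha-catenin, had its lost peak at chr5:138825402-138825816, and chr5:138825406-138825525 is shown.
RALGDS, gained: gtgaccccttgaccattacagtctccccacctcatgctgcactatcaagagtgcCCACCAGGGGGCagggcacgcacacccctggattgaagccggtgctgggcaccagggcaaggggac
ICA1, gained: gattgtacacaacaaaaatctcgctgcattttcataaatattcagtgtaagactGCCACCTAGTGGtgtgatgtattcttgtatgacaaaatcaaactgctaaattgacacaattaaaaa
ABCB8, gained: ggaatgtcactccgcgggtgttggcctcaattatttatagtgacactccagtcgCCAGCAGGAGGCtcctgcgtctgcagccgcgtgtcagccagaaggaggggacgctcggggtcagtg
GLIS2, lost: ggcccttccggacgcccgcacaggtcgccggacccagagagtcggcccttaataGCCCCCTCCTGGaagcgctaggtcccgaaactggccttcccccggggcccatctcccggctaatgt
TMEM178A, lost: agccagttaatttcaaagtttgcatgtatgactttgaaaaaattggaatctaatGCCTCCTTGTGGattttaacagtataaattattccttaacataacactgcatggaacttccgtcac
CTNNA1, lost: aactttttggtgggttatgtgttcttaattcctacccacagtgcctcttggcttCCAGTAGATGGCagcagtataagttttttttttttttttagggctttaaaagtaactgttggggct
The cores of RALGDS, ABCB8 and CTNNA1 lie on the plus strand and those of ICA1, GLIS2 and TMEM178A on the minus strand. The KD list held a peak on the RALGDS, ABCB8, TMEM178A and CTNNA1 peaks and none on those of ICA1 and GLIS2. Gained and lost are calls on the unmasked lists: the RALGDS and ICA1 peaks overlapped a peak of the repeat-masked CT list, and the TMEM178A peak overlapped a peak of the repeat-masked OE list.

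More than 1 in 2 peaks of each list had no counterpart in the other. There were 26535 gained peaks, 57.8% of the OE list (57.4 to 58.3), and 22374 lost peaks, 53.7% of the CT list (53.2 to 54.1). The shared peaks numbered 19337 in OE and 19318 in CT. Gained peaks thus made up 54.3% of the peaks that differed (53.8 to 54.7). This excess of gains mirrored the longer OE list, because the shared peaks were almost equal in number in both lists. With only the widest OE peaks, as many as CT had, 23245 were gained and 23258 lost. Lists of equal length must give near-equal counts, so this is no separate test of the excess. In the repeat-masked lists, which were both called at p 0.001, 7510 were gained and 12990 lost. There the CT list was the longer one, with 25829 peaks against 20358 in OE. The results below therefore turn on the make-up of gained and lost peaks and not on their number.

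The CT list stood apart from the other CTCF lists. Of the CT peaks 46.8% (46.3 to 47.3) overlapped a peak in neither OE nor KD. The matching share was 34.8% in OE (34.4 to 35.2) and 32.0% in KD (31.6 to 32.4). Of the gained peaks 10577 lay on a KD peak, 39.9% (39.3 to 40.5), against 2865 of the lost peaks, 12.8% (12.4 to 13.2), a difference of 27.1 percentage points (26.3 to 27.8), which was 58.7 in the repeat-masked lists. Of the shared OE peaks 92.6% lay on a KD peak (92.2 to 93.0), and of 300 bp windows spaced evenly along the genome 1.03% (0.889 to 1.18). KD is the opposite change in CGGBP1, so a gain that KD shared was a peak absent from CT and not one particular to OE. With 1 library each, the condition and the yield of the CT library cannot be told apart.

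Gained peaks held the CTCF core more often than lost peaks. The core was found in 11.05% of gained peaks (10.7 to 11.4), in 2.82% of lost peaks (2.60 to 3.04) and in 26.7% of shared OE peaks (26.05 to 27.3). The difference between gained and lost was 8.23 percentage points (7.80 to 8.67), and 17.8 in the repeat-masked lists. The evenly spaced windows held it in 0.809% (0.688 to 0.946), and of all 9703288 consecutive 300 bp windows of these chromosomes 0.747% held it. With at most 1 mismatch allowed, the shares were 37.7% of gained, 20.9% of lost and 15.4% of windows. So lost peaks lay nearer to the genome at large than to the shared peaks by this readout. Lost peaks were also wider, with a median of 288 bp against 257 bp in gained peaks, so width did not favour the gained peaks.

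The core was also more central in gained peaks. In the 2898 gained peaks with a single core its middle lay a median of 25 bp from the peak centre, and in the 615 such lost peaks 44 bp. It lay within 50 bp of the centre in 77.0% of gained peaks (75.4 to 78.5) and in 57.2% of lost peaks (53.2 to 61.2). For shared peaks the same share was 80.7% in OE and 67.5% in CT, so the CT intervals of shared sites were less centred as well.

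The difference in the core went with the KD list. Among peaks with a KD peak, 24.4% of the gained and 12.6% of the lost ones held the core. Among peaks without one, 2.22% of the gained and 1.37% of the lost ones did. Of the 2931 gained peaks with the core, 87.9% lay on a KD peak (86.7 to 89.1), and of the 630 lost ones 57.5% (53.5 to 61.4). Most core-bearing gains were therefore peaks that OE and KD had in common and the unmasked CT list lacked. Of the core-bearing gains 22.1% (20.7 to 23.7) overlapped a peak of the repeat-masked CT list, so CT did not lack these in both lists.

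**Figure D1:**
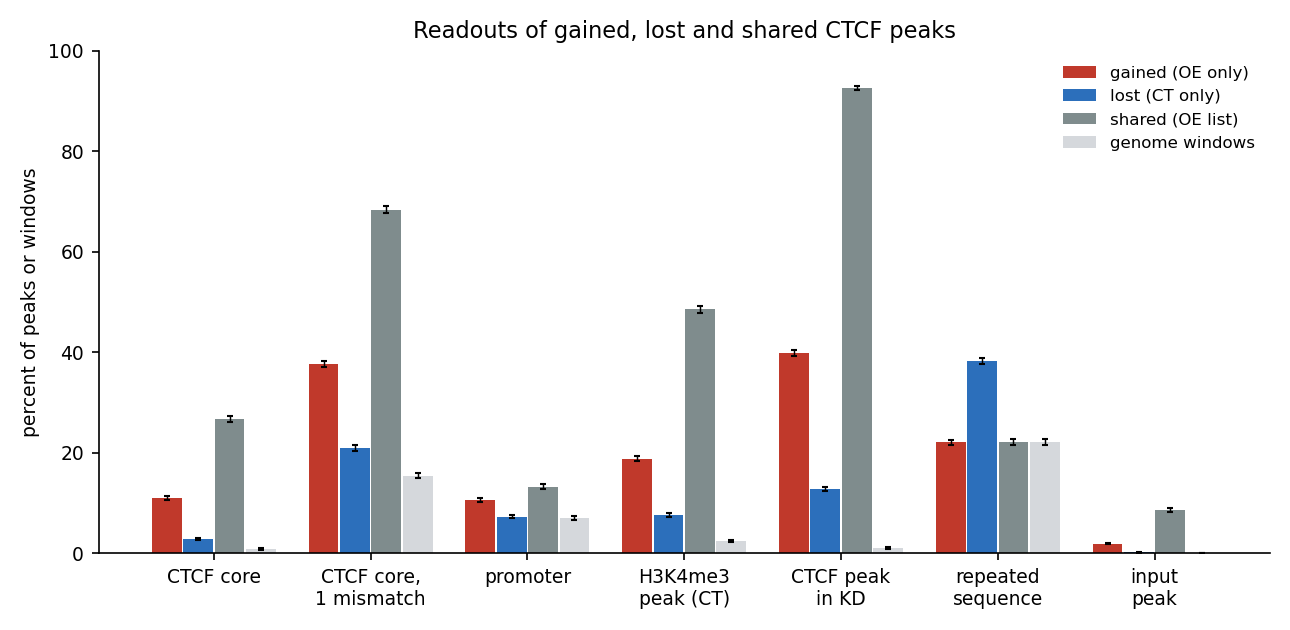
Percent of gained (OE only), lost (CT only) and shared peaks and of genome windows that hold each readout on the x axis. Bars are shares with 95% exact binomial intervals for counting error. Gained peaks lie between lost and shared peaks for the core, promoters, H3K4me3 and KD peaks, and lost peaks are the highest for repeated sequence at 38.2%.

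Gains lay nearer to promoters than losses and more often on H3K4me3. A peak centre within 1 kb of an annotated transcript start was found for 10.5% of gained peaks (10.2 to 10.9), 7.27% of lost peaks (6.93 to 7.62) and 13.3% of shared OE peaks, against 6.98% of windows (6.62 to 7.34). The difference between gained and lost was 3.27 percentage points (2.77 to 3.77). Lost peaks were at promoters about as often as the windows were. Introns held 44.8% of gained and 48.8% of lost peaks, and intergenic sequence held 40.5% and 41.1%. Coding exons held 0.848% and 0.505%, and UTRs 1.70% and 1.28%.

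The balance fell with distance from the start of a protein-coding gene. Gained peaks were 64.4% of the differing peaks up to 1 kb from such a start (62.6 to 66.1), 59.6% at 1 to 10 kb, 53.7% at 10 to 100 kb and 49.9% beyond 100 kb (49.2 to 50.7). The median distance was 32.7 kb for gained, 48.6 kb for lost and 23.96 kb for shared OE peaks, and 43.2 kb for windows.

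H3K4me3 was mapped in CT cells, and still it lay more often on the peaks that the unmasked CT list lacked. An H3K4me3 peak overlapped 18.8% of gained peaks (18.4 to 19.3), 7.57% of lost peaks (7.23 to 7.93), 48.5% of shared OE peaks and 2.44% of windows. The difference between gained and lost was 11.3 percentage points (10.7 to 11.8), and 17.4 in the repeat-masked lists. Within promoters it was 48.0% of 2796 gained and 35.5% of 1626 lost peaks, and within introns 13.6% and 4.98%. Of the H3K4me3-marked gained peaks 3655 lay outside promoters. Promoters made up 26.9% of the H3K4me3-marked gained peaks, 34.1% of the marked lost peaks and 41.9% of the marked windows. Outside promoters 25.6% of the marked gained and 36.3% of the marked lost peaks were repeated, and 9.44% and 1.70% lay on input peaks. The list labelled H3K27me3 overlapped 4.08% of gained and 2.10% of lost peaks. The list labelled H3K9me3 overlapped 4.09% of gained and 5.28% of lost peaks, but this order followed the larger share of repeated sequence among losses. It lay on 17.4% of the gained and 13.5% of the lost repeated peaks, and on 0.319% and 0.174% of the others. The labels and the study's methods swap the antibodies of these marks, so which mark each list holds is not settled. Input DNA had a peak on 1.90% of gained, 0.179% of lost and 8.51% of shared OE peaks. Without the peaks on input the H3K4me3 difference was 10.3 percentage points. Shared OE peaks lay on H3K9me3 at 16.0%, and the part of input-enriched sequence in this was not tested.

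Gained peaks were richer in G and C. Their mean GC content was 42.5% (SD 8.42, n = 26535), against 40.4% in lost peaks (SD 8.14, n = 22374), 45.5% in shared OE peaks and 40.9% in windows. The difference between gained and lost was 2.15 percentage points (2.01 to 2.30). It was 3.57 without repeated peaks and 6.47 in the repeat-masked lists. Gains made up 49.5% of the differing peaks with less than 40% GC and 65.8% of those with 60% or more (63.5 to 68.0). In that GC-rich class H3K4me3 lay on 55.9% of the gained and 59.2% of the lost peaks and promoters made up 45.7% and 49.7%, so these marks did not favour gains there. The core did, with 27.4% of gained and 16.4% of lost peaks. CpG-island-like peaks, with 50% GC or more and an observed over expected CpG ratio of at least 0.6, were 3.02% of gained (2.82 to 3.24) and 3.73% of lost peaks (3.49 to 3.99). Among repeated peaks they were 1.40% of gained and 4.61% of lost ones, and among the others 3.48% (3.24 to 3.74) and 3.19% (2.90 to 3.50), so the order of the pooled shares came from repeated peaks. At least 3 CGG units in tandem were found in 21 gained and 30 lost peaks. These were 0.079% of gained (0.049 to 0.121) and 0.134% of lost peaks (0.090 to 0.191), with overlapping intervals. The share was 0.197% in shared OE peaks and 0.119% in windows.

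**Figure D2:**
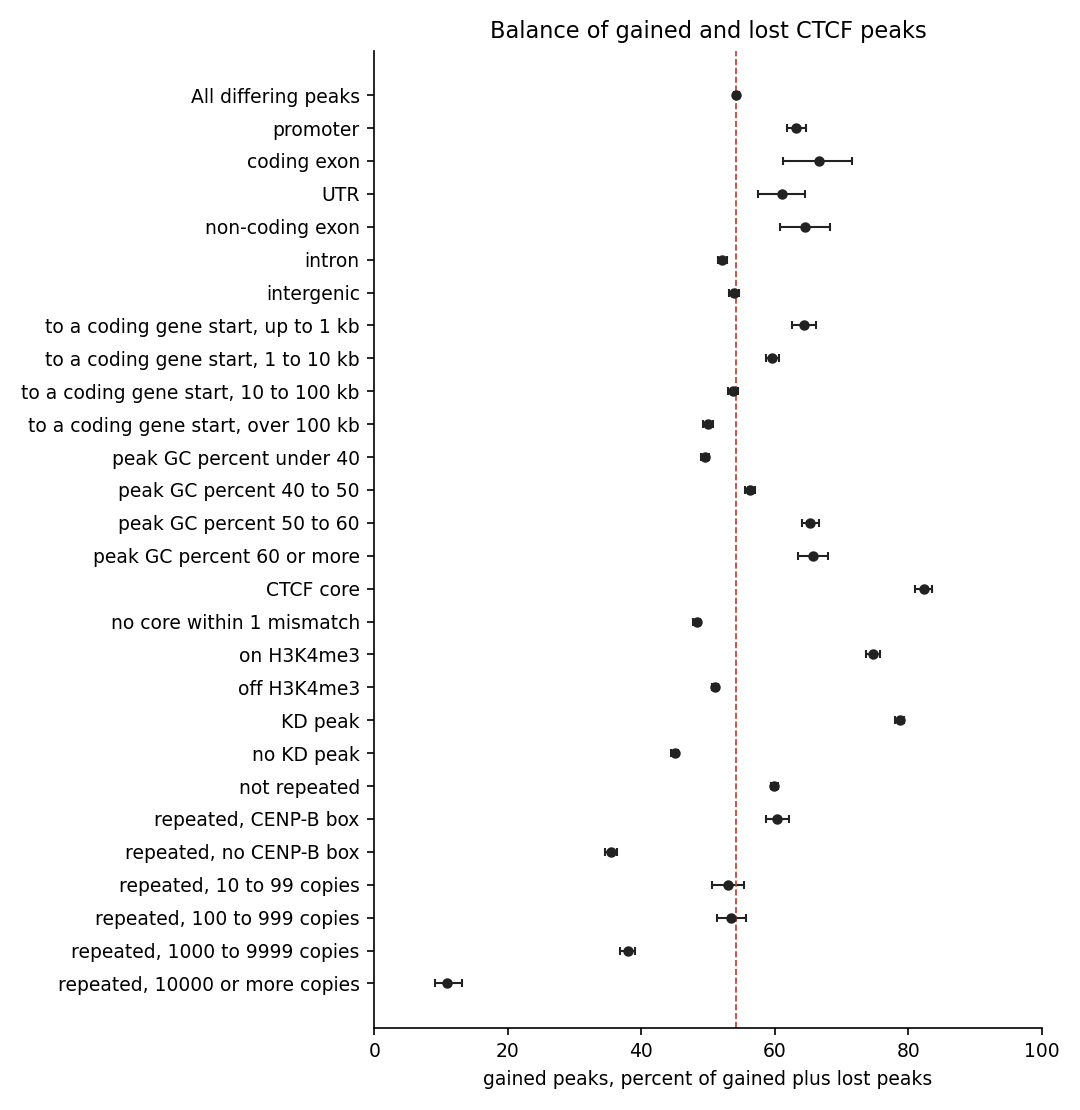
Gained peaks as a percent of gained plus lost peaks (x axis, 0 to 100) for the classes named on the y axis, with 95% exact binomial intervals. The dashed line is 54.3%, the value over all differing peaks. The classes run from 10.9% for repeated peaks of 10000 or more copies to 82.3% for peaks with the CTCF core.

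Losses were richer in repeated sequence. A peak was called repeated when at least 50% of its bases lay in 24-mers that occur 10 or more times in the reference. This held for 38.2% of lost peaks (37.6 to 38.9), 22.1% of gained peaks (21.6 to 22.6), 22.04% of shared OE peaks and 22.1% of windows. The difference, gained minus lost, was -16.2 percentage points (-17.0 to -15.3). In the repeat-masked lists, which differ in both masking and p, it was 2.39, so the sign turned. Masking takes repeats out of the genome these lists were called on, so they cannot show whether repeated sites were gained or lost. The share of gains was lower at high copy numbers. Taking the median count of a peak's 24-mers as its copy number, 105 gained and 855 lost peaks reached 10000 copies, so gains were 10.9% (9.03 to 13.1) of these. From 1000 to under 10000 copies there were 2943 gained and 4814 lost peaks, and from 10 to under 100 copies 892 and 790. The median copy number of repeated peaks was 1099.5 in gained, 2561 in lost and 2324 in shared OE peaks. Reads from such copies cannot be assigned to 1 place with certainty, so a gain or loss here is of a family of sites at least as much as of 1 site.

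Repeated sequence was not of 1 kind. The genome was divided into 1 Mb bins, and 61 bins had at least 20 differing peaks of which 95% or more were repeated. A CENP-B box, the binding letters of a centromere protein and a hallmark of alpha satellite (TTCG, 4 free positions, A, 2 free positions, CGGG), was found in 58.6% of the differing peaks of these bins, against 1.39% of the evenly spaced windows. In these tandem-array bins gains outnumbered losses, 3004 to 1801, so that gains were 62.5% (61.1 to 63.9), with more gains in 51 bins and more losses in 7. Outside them repeated sequence made up 12.2% of gained peaks, 12.1% of shared OE peaks and 32.8% of lost peaks. The excess of repeated peaks among losses thus lay outside the array bins, which went the other way.

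Chromosome 17 was the exception among the arrays. Its 4 array bins had 43 gained and 139 lost peaks, so gains were 23.6% (17.7 to 30.5), and losses led in 4 of 4 bins. On the other chromosomes the share of gains ran from 55.1% on chromosome 18 to 81.2% on chromosome 6. The array bins of chromosome 17 held 179 CT peaks, 84 OE peaks and 43 KD peaks. Those of the other chromosomes together held 3803 in CT, 5109 in OE and 4391 in KD. On chromosome 6 the numbers were 26, 86 and 28. Input DNA had 1375 peaks in these bins, 16 of them on chromosome 17, and its part in the counts was not tested. The widest gained and lost peaks with a box are shown from the bins with the largest excess of gains and of losses, 25 to 26 Mb of chromosome 19 (104 gained, 37 lost) and 25 to 26 Mb of chromosome 17 (6 gained, 42 lost). They lay at chr19:25787996-25788551 and chr17:25314739-25315642, and chr19:25787996-25788115 and chr17:25314803-25314922 are printed, with the box in capitals.
Array, gained: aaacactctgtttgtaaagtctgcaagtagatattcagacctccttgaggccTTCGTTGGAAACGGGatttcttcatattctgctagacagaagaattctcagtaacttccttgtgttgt
Array, lost: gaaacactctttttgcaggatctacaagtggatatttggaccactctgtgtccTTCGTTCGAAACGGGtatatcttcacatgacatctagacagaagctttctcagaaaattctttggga
Both hold the box on the plus strand within an A- and T-rich unit.

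**Figure D3:**
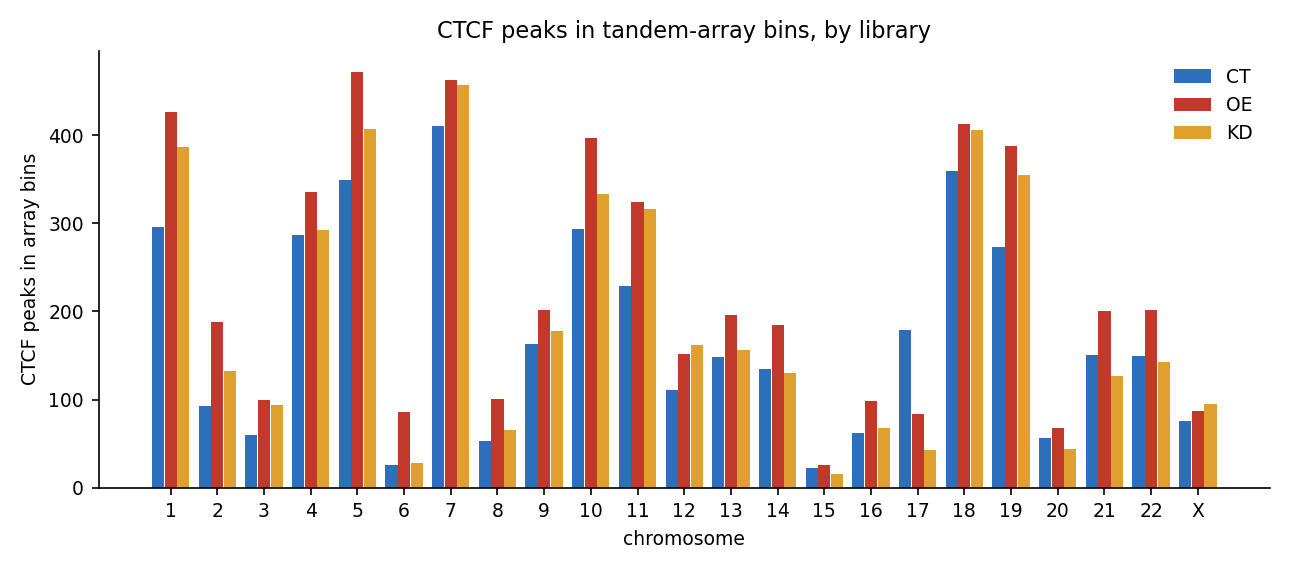
Number of CTCF peaks (y axis) in the tandem-array bins of each chromosome (x axis) in the CT, OE and KD lists, 1 library each. OE is above CT on each chromosome but 17, where CT has 179 peaks, OE 84 and KD 43.

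Whole chromosomes differed too. The share of gains among differing peaks was highest on chromosomes 22 and 19, at 65.8% (62.4 to 69.0) and 65.5% (62.7 to 68.2), and lowest on X, at 45.0% (43.0 to 47.0), 4, at 45.8%, and 13, at 46.2%. Per Mb of known bases chromosome 22 had 13.8 gained and 7.201 lost peaks, and chromosome 4 had 5.09 and 6.03. Chromosome 19 lost the smallest part of its CT peaks, 34.8%, and chromosome 18 the largest, 64.4%. Over the 23 chromosomes the share of gains went with the GC content of the chromosome (Pearson r = 0.79, Spearman rho = 0.78). Without chromosomes 19 and 22, the farthest from the median GC content, r was 0.64. With repeated peaks left out, r was 0.86 over the 23 chromosomes. All points share the same libraries, and GC content goes with gene density, so these are descriptions of 1 pair of libraries.

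**Figure D4:**
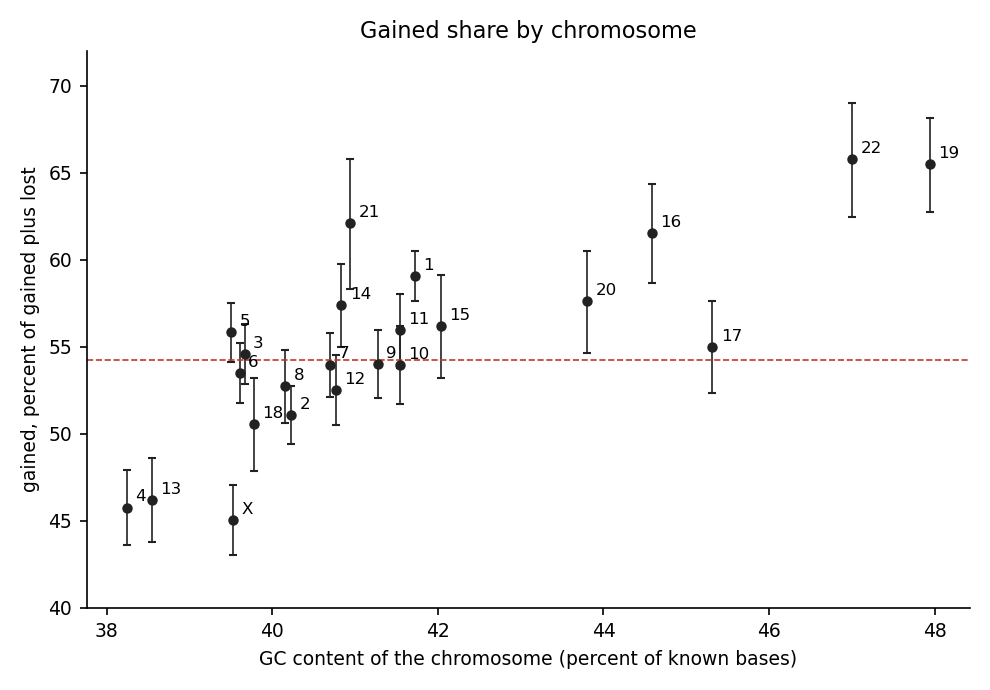
Gained peaks as a percent of gained plus lost peaks on each chromosome (y axis, from 40 to 72) against the chromosome's GC content (x axis, percent of known bases), with 95% exact binomial intervals. The dashed line is 54.3%. Chromosomes 19 and 22 are the highest and X, 4 and 13 the lowest.

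Gained peaks were more closely spaced. Of gained peaks 36.2% (35.6 to 36.8) had another OE peak within 10 kb, and of lost peaks 25.8% (25.3 to 26.4) had another CT peak there, a difference of 10.4 percentage points (9.56 to 11.2). The median distance to the nearest peak of the same list was 16.6 kb for gained and 23.5 kb for lost peaks. A longer list is denser by itself. With as many OE as CT peaks, the difference was 7.58 percentage points. Gained and lost peaks were mostly not shifted copies of each other: the nearest CT peak lay a median of 18.9 kb from a gained peak, and 4.53% of gained peaks had one within 1 kb. For lost peaks and the OE list these values were 22.6 kb and 4.02%.

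The repeat-masked lists were called on a repeat-masked genome from the same libraries, at 1 threshold for both, so they are no independent check. Of the gained peaks 25.1% (24.6 to 25.6) overlapped a masked OE peak and 8.19% a masked CT peak. Of the lost peaks 15.5% (15.1 to 16.0) overlapped a masked CT peak and 1.60% a masked OE peak. A total of 4724 gained peaks lay on a masked OE peak and on no masked CT peak, and 3170 lost peaks on a masked CT peak and on no masked OE peak. In these sets the core was in 24.3% of gained and 6.31% of lost peaks, H3K4me3 on 28.9% and 14.8%, and a KD peak on 78.9% and 19.9%. Neither masked list held a peak on 74.0% of gained and 84.2% of lost peaks.

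Of the differing peaks within protein-coding genes or 5 kb of them 55.7% were gained, close to the 54.3% over all differing peaks. The counts of genes follow this excess of gains, which depended on the lists. Of 19970 protein-coding genes, 8521 (42.7%) had a gained peak within the gene or 5 kb of it and 6482 (32.5%) a lost peak. A gained peak without a lost one was found for 4619 genes, a lost one without a gained one for 2580, and both for 3902. Within 10 kb of a transcript start the numbers were 7298 genes (36.5%) with a gained and 4882 (24.4%) with a lost peak. Long genes went with losses. Gains were 66.7% of the differing peaks counted for genes under 20 kb (65.1 to 68.3) and 60.2% at 20 to 100 kb. They were 54.9% at 100 to 500 kb and 46.4% in genes over 500 kb (44.8 to 48.0). A peak at several genes was counted for each of them, and the intervals treat these counts as separate peaks.

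The genes with the largest excess of gains were KCNAB1, a beta subunit of voltage-gated potassium channels, RARB, the retinoic acid receptor beta, GPR107, FNBP1, a formin-binding protein of membrane curvature, HMCN2, an extracellular matrix protein, and PCDHGA1, a clustered protocadherin. KCNAB1 (chr3:156037701-156539138) had 11 gained, 0 lost and 4 shared OE peaks. RARB (chr3:24687887-25597932) had 14 gained, 3 lost and 3 shared ones. Of the 14 gained RARB peaks 3 lay on a KD peak and 1 held the core. PCDHGA1 (chr5:141330514-141512975) had 11 gained and 2 lost peaks, and 9 of the gained ones were at promoters and 6 on H3K4me3. The reach of PCDHGA1 spans the other genes of its cluster, so these are peaks of the cluster.

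GPR107, FNBP1 and HMCN2 are neighbours on chromosome 9 and formed 1 block. From FNBP1 to HMCN2 with 5 kb on each side (chr9:129882187-130439123) there were 33 gained, 2 lost and 8 shared OE peaks in 557 kb. FNBP1 had 10 gained and 1 lost peak, GPR107 10 and 0, HMCN2 9 and 0, and NCS1 between them, a neuronal calcium sensor that the rule did not name, 2 and 1. Of the 33 gained peaks 1 held the core, 2 lay on H3K4me3, 7 on a KD peak, 1 on an input peak and 1 was repeated. A masked OE peak lay on 13 of them and a masked CT peak on 0. Of the 8 shared peaks 7 lay on H3K4me3 and 7 on a KD peak. With repeated peaks left out, the 1 Mb bin from 130 to 131 Mb of chromosome 9 had the largest excess of gains in the genome, 36 gained and 2 lost.

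The genes with the largest excess of losses were ROBO2, the axon guidance receptor of Slit proteins, CTNNA3, a catenin of cell adhesion, EYS, a photoreceptor protein, PTPRD, a receptor tyrosine phosphatase, LRP1B, of the LDL receptor family, and WDR70. ROBO2 (chr3:75906695-77649964) had 6 gained, 21 lost and 9 shared OE peaks. CTNNA3 had 9 gained and 20 lost peaks, EYS 13 and 24, PTPRD 12 and 23, LRP1B 7 and 17, and WDR70 2 and 11. Of the 21 lost ROBO2 peaks 7 were repeated, 1 lay on a KD peak and 0 held the core. The first 5 of these genes were between 1743 kb and 2299 kb long and WDR70 was 374 kb, beside a median of 27.5 kb over all protein-coding genes, so they had more room for peaks of either kind. CGGBP1 itself (chr3:88051944-88149885) had 0 gained, 1 lost and 2 shared OE peaks. A shared peak lay on its coding exon in both lists, at chr3:88055503-88056017 in CT and chr3:88055436-88056016 in OE, and KD had a peak there as well. CTCF peak lists do not measure the level of CGGBP1, so it could not be checked in them. The study examined it by immunoblot and reports overexpression.

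**Figure D5:**
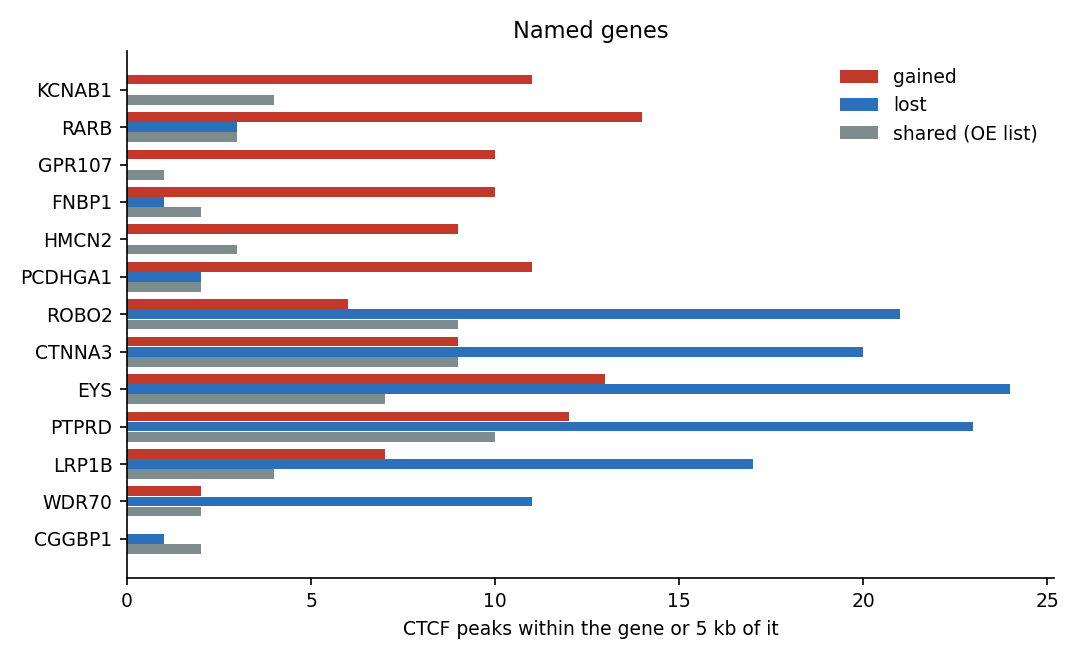
Number of gained, lost and shared (OE list) CTCF peaks within each gene or 5 kb of it (x axis) for the genes named by the rule and for CGGBP1. The upper genes were chosen for an excess of gains and the lower ones for an excess of losses, so the bars describe the choice. CGGBP1 has 0 gained and 1 lost peak.

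At promoters the genes with the widest gained peaks, and with no CT peak within 10 kb of the start, were CD72, ERCC4, NPAS1, SEC61A1, MORF4L1 and TAF11L7. The peak of CD72, a B cell surface receptor, was 834 bp wide (chr9:35646286-35647119). That of ERCC4, a DNA repair nuclease subunit, was 755 bp (chr16:13919349-13920103), and that of SEC61A1, a pore subunit of the endoplasmic reticulum, 701 bp. All 6 lay on a KD peak and 5 of them, all but SEC61A1, on H3K4me3. The CD72 and ERCC4 peaks also overlapped a masked CT peak, so these gains did not hold in the masked lists. Those of SEC61A1, MORF4L1 and TAF11L7 overlapped no peak of either masked list. The TAF11L7 peak was repeated, so its reads cannot be assigned to 1 place with certainty. Only the NPAS1 peak overlapped a masked OE peak and no masked CT peak. The widest lost promoter peaks without an OE peak within 10 kb were at CIC, a transcriptional repressor, with 608 bp (chr19:42279790-42280397), ATXN10, ESCO2, an acetyltransferase of cohesin, SLC39A10, a zinc transporter, EVI5 and PGM5. Of these 6, those of CIC and SLC39A10 lay on a KD peak, and those of CIC, SLC39A10 and EVI5 on H3K4me3. The lost peaks of CIC, SLC39A10, EVI5 and PGM5 overlapped a masked CT peak and no masked OE peak. Those of ATXN10 and ESCO2 overlapped no peak of either masked list. The start of any annotated transcript was used, so it can lie inside a gene. The ATXN10 peak (chr22:45794173-45794759) and the ESCO2 peak (chr8:27787872-27788457) lay inside their genes, which begin at 45671798 and 27771949. None of the 12 held the core without a mismatch, and 9 of the 12 held it with 1 mismatch. With at most 1 mismatch it was in 50.8% of all gained and 32.5% of all lost promoter peaks. Of windows at promoters 22.2% held it so. The 12 were chosen for width, and a wider peak has more room for such a match.

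Gene groups chosen with earlier results known are given by their genes and by their distinct peaks, beside 42.7% of protein-coding genes with a gained and 32.5% with a lost peak. The HOX clusters, the body-axis transcription factor genes, had a gained peak at 25 of 39 genes and a lost one at 5, from 18 gained, 5 lost and 9 shared OE peaks. HOXA3 had 5 gained and 0 lost peaks within its reach, which spans HOXA4 and HOXA5. Clustered protocadherins, the neuronal surface identity genes, had 37 and 35 of 53, from 21 gained and 6 lost peaks. Histone genes of chromosome 6 had 16 and 1 of 55, from 8 gained and 1 lost peak. Cytosolic ribosomal protein genes had 25 and 11 of 77, from 33 gained and 12 lost peaks. Neighbouring genes of the clusters can share a peak, so the counts of genes are not counts of independent sites.

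Losses led gains in counts of genes for 2 clustered families. Olfactory receptor genes had a gained peak at 31 of 400 genes and a lost one at 48, from 34 gained and 49 lost peaks, and zinc finger genes of chromosome 19 had 40 and 48 of 249, though from 52 gained and 44 lost peaks. Genes of CTCF and the cohesin machinery had 11 and 8 of 16, from 22 gained and 19 lost peaks, with STAG1 at 5 gained and 4 lost and NIPBL, the cohesin loader, at 2 and 3. Imprinted genes had 10 and 9 of 24, from 22 gained and 13 lost peaks, with KCNQ1 at 4 gained and 1 lost. Kidney development transcription factors had 5 and 4 of 16, from 8 gained and 7 lost peaks, with EYA1 at 4 gained and 3 lost, and repeat-expansion genes had 13 and 8 of 16, from 33 gained and 24 lost peaks. Among the last, HTT, the Huntington disease gene, had 4 gained and 0 lost peaks and AFF2 3 gained and 6 lost.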

How the data were processed

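CTCF ChIP-seq of HEK293T cells was analysed from deposited peak lists. Per the labels, the authors aligned reads to hg38 with Bowtie2, called peaks with MACS2, 1 library per condition and no pooling, and processed them with bedtools. Tool versions are not given in the sources used here. The deposited lists hold positions only (chromosome, start, end), with no count, height or score, so the read depth behind each peak is unknown, and library read totals were not used here. The study's methods give p 0.005 for all unmasked lists, where the labels give 0.0025 for CT and KD. Starts were read as counted from 0 and are printed from 1.

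Of the files, 9 lists were used, and 10 were not used, among them those of the authors' own list differences. Overlaps, exact binomial intervals (scipy 1.17.1) and distances were computed in Python and tested on simulated data. Intervals of differences are normal approximations. GENCODE v44 gave promoters (1 kb of a transcript start), exons, introns and genes. Sequence came from the hg38 reference. Genes were named by (a) the 6 largest and 6 smallest gained minus lost counts, (b) the 6 widest gained and lost peaks at starts that met the limits given, and (c) fixed lists and CGGBP1. The rule in (b) put no core-bearing peak among its 12, so the printed promoter sequences come from further down its order. Members and gene lists were chosen with earlier results of these data known. Alternatives for overlap, input, list length, masking, promoter window, mismatches, copy minimum and distance were tried.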

Additional observations from a re-analysis of the deposited data

Results flagged for a closer look

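Peaks outside the chromosomes used went both ways. Unplaced and unlocalized sequences carried 583 OE and 368 CT peaks, of which 332 and 113 had no counterpart in the other list, 56.9% (52.8 to 61.0) and 30.7% (26.03 to 35.7). Alternate loci carried 637 OE and 810 CT peaks, with 272 and 444 of them without a counterpart. There was 1 library per condition, so the difference was not tested.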

How the results depend on the processing

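Of the 9 results recomputed, given as the percent of OE peaks gained, the percent of CT peaks lost, and differences gained minus lost in percentage points, 1 changed direction. In the repeat-masked lists the difference in repeated peaks was 2.39, a readout that masking itself limits. These lists differ from the unmasked ones in masking and in p together. The others there were 36.9% gained, 50.3% lost, promoters 4.84, GC 6.47, core 17.8, H3K4me3 17.4, KD 58.7 and spacing within 10 kb 11.3. With a reciprocal overlap of at least 50% they were 61.7% gained, 57.9% lost, GC 1.99, core 7.64, repeated -15.1, H3K4me3 10.3 and KD 24.6. With a gap of up to 1 kb counted as shared, 55.2% were gained and 51.5% lost. Without input peaks the values were 59.6% and 55.8%, with repeated -17.4, H3K4me3 10.3 and spacing 9.46. With the widest OE peaks they were 55.8% and 55.8%, with repeated -17.0 and spacing 7.58. A promoter window of 500 bp gave 2.20 and one of 2500 bp gave 5.29. A core with 1 mismatch gave 16.8. Spacing was 2.01 within 1 kb and 2.24 within 100 kb. Leaving out repeated peaks, an alternative chosen after seeing the data, gave 48.1% lost, promoters 2.52, GC 3.57, core 9.55, H3K4me3 10.2 and KD 32.2. The cause of these shifts was not tested. The other 23 values stayed within the 95% interval of the value reported. No paired analysis was possible because each condition has 1 library. The differing p and the lack of read numbers per peak limit what the numbers of gained and lost peaks can show.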

Other observations

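Other 1 Mb bins with a large excess of gains lay outside the tandem arrays. From 8 to 9 Mb of chromosome 21 there were 61 gained and 10 lost peaks, 45.1% of them repeated, and input DNA had a peak on 15.5%. From 85 to 86 Mb of chromosome 8 there were 54 gained and 8 lost peaks, 79.0% of them repeated, with an input peak on 41.9% and H3K4me3 on 69.4%. With repeated peaks left out, the bin from 141 to 142 Mb of chromosome 5, with the clustered protocadherins, had 29 gained and 7 lost peaks. That from 22 to 23 Mb of chromosome 14, with MMP14, a membrane matrix metalloproteinase, had 26 and 4, and that from 102 to 103 Mb of chromosome 10, with NFKB2, a subunit of NF-kappa B, had 21 and 1. The largest excess of losses outside the arrays of chromosome 17 was in these bins. From 88 to 89 Mb of chromosome 13 there were 8 gained and 22 lost peaks and from 86 to 87 Mb of X, with DACH2, 4 and 18.

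A pair of tandem GGAAT units, the unit of the human satellites II and III, was found in 77 gained, 28 lost and 128 shared OE peaks, 0.290%, 0.125% and 0.662%. Of the evenly spaced windows 0.144% held it. The interval of the gained share, 0.229 to 0.363, did not overlap that of the lost share, 0.083 to 0.181, by counting error only.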
